A study of Mus musculus with 5 samples.

Results

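The axon guidance ligands and receptors of the adult mouse brain were taken as every RefSeq gene whose symbol belongs to the semaphorin, plexin, neuropilin, ephrin, Eph, Slit, Robo, netrin, netrin-G or Unc5 families, together with Dcc. The rule found 72 genes, represented by 102 transcripts, among 27802 genes and lncRNA loci in the table, of which 20340 were coding genes. Of the 72, 37 are ligands and 34 are receptors. The remaining one, Unc5cl, shares the start of its symbol with Unc5c but encodes an intracellular death-domain protein and is not counted as a netrin receptor.

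RNA was measured in 4 brain regions of adult male wild-type C57BL/6 mice, microdissected and snap-frozen, and poly(A) RNA was sequenced. The groups were the subventricular zone (SVZ), where new neurons are born, the olfactory bulb (OB), where they settle, the dentate gyrus (DG), the hippocampal site of neurogenesis, and the striatum (STR), the non-neurogenic control tissue. The SVZ had 2 biological replicates, here SVZ 1 and SVZ 2, and the other regions had 1 sample each. All groups share this strain and genotype, the labels name no treatment, and they do not say how many animals entered a sample. Each region is a mixture of cell types, so fewer cells of a type and less RNA per cell cannot be told apart.

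Guidance molecules steer growing axons and migrating neurons by attraction or repulsion at the cell surface. Slits are secreted repellents read by Robo receptors, and netrins are secreted cues that attract through Dcc and repel through Unc5 receptors. Class 3 semaphorins are secreted and bind neuropilins, which signal with A plexins, while the membrane-bound classes bind plexins directly. Ephrins are anchored to the membrane and signal to Eph receptor tyrosine kinases on touching cells, and the signal can run in both directions. In the adult brain, Slit-Robo signalling and Eph-ephrin contacts are known for their part in the migration of neuroblasts from the SVZ to the OB, and many of these genes stay active in mature neurons at synapses.

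Promoter sequences are shown for the genes with the largest differences that had a single entry in the RefSeq promoter table of build GRCm38.p6, since members that were high in the same region could be read side by side. Each line gives the 250 bases before the gene's start, 5′ to 3′ on the gene's strand. Ntng1 (chr3:110143473-110143722, minus strand) and Epha10 (chr4:124881535-124881784, plus strand) were higher in OB than in the SVZ. Robo3 (chr9:37433176-37433425, minus strand) and Sema5a (chr15:32244563-32244812, plus strand) were highest in DG. Capitals mark matches to CAGATG or CAGCTG, the E-boxes of neurogenic basic helix-loop-helix factors, or to TAATTA, a homeodomain core, searched on both strands.
Ntng1: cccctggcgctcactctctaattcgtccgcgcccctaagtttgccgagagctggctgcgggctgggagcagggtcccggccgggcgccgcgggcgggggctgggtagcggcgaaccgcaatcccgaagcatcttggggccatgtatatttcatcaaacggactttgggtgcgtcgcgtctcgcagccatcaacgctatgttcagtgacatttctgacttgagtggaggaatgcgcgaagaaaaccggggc
Epha10: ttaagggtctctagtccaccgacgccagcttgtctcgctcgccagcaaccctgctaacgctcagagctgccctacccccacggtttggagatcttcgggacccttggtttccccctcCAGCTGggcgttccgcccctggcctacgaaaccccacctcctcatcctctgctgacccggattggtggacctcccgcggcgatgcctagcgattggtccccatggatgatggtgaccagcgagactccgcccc
Robo3: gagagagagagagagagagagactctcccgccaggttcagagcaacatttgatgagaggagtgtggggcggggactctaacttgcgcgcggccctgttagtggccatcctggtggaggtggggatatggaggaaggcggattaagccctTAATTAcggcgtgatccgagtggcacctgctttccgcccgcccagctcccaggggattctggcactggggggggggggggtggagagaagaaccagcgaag
Sema5a: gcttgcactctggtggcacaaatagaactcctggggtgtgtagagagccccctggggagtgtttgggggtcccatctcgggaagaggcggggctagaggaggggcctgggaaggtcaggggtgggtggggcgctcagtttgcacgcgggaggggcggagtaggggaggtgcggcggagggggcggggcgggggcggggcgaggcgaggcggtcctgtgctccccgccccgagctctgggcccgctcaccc

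The 4 windows held 1 CAGCTG, in Epha10, and 1 TAATTA, in Robo3. Their GC content ran from 61.2% in Robo3 to 72% in Sema5a. Promoter entries existed for 62 of the 72 genes, 78 in number, and CAGATG was found in 7.69% of them, CAGCTG in 15.4% and TAATTA in 3.85%. Over all 32851 promoters of the same length the shares were 14.4%, 13% and 4.84%. Among 15 promoters of genes higher in OB than in the SVZ, CAGCTG was found in 3 (Epha10, Sema4g and Sema6c), and among 11 promoters of genes highest in DG it was found in 0. In the same sets CAGATG was found in 1 and 1, and TAATTA in 1 and 1. These promoters cover 13 of the 15 genes higher in OB and 10 of the 12 highest in DG. These matches describe the letters of the windows, and no binding was measured.

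Expression was given as FPKM, a fragment count divided by transcript length and by library size, so levels can be compared between genes per length. The read depth is unknown, because FPKM carries no counts. Differences were taken on log2(FPKM + 1), where folds of low genes are understated. A gene was called higher or lower between the SVZ and another region when that region differed by at least 1 log2 unit, 2-fold on this scale, from each of the 2 SVZ samples, among genes that reached 1 FPKM in either region. The standard errors (SE) come from limma fitted to all 5 libraries. They rest on the spread between the SVZ samples alone, so they assume that the single samples vary alike. The fit draws the spread of each gene toward that of other genes, so an SE is not that gene's own spread.

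The SVZ samples differed from each other. Among guidance genes at 1 FPKM or more in either SVZ sample, 17 of 69 were at least 1 log2 unit higher in SVZ 1. By as much, 0 were higher in SVZ 2. Of 13272 coding genes, 1567 were higher in SVZ 1 and 237 in SVZ 2. The share apart was thus 24.6% of the guidance genes and 13.6% of the coding genes. The median of SVZ 1 minus SVZ 2 was 0.60 against 0.34 for coding genes. SVZ 2 stood with STR and SVZ 1 with OB and DG in the level of the reference gene Gapdh, which was at 32.4 and 39.5 FPKM in SVZ 2 and STR and between 414 and 563 FPKM in the other 3 libraries. The labels name no such sets of libraries, and the part of this split in the differences between regions was not tested. The DG library listed 16725 of 37142 transcripts at 0, against 9564 to 10807 in the others, and 1 guidance gene, Epha1, was listed at 0 there, as were Efna4 and Unc5cl in STR. The tissue labels were checked against marker genes. All 6 ependymal markers were highest in the SVZ, 5 of 6 olfactory nerve and ensheathing glia markers and 4 of 6 bulb interneuron markers in OB, and 5 of 6 dentate granule markers in DG, each by at least 1 log2 unit over the other regions. Markers of striatal projection neurons summed to 5133 and 4045 FPKM in SVZ 1 and SVZ 2 and 4349 in STR, and none of the 10 was called between these regions.

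Guidance genes were broadly expressed. Of the 72, 57 were at 1 FPKM or more in every library, and 64 in both SVZ samples, 68 in OB, 64 in DG and 62 in STR. Coding genes at this level in a single library numbered from 12275 (STR) to 13119 (SVZ 1), among 20340. The highest value of a gene was found in OB for 26 genes, in DG for 24, in 1 of the 2 SVZ samples for 19 and in STR for 3. These counts used unscaled values, and the SVZ entered with 2 samples. Factors for scaling the libraries by median ratios ran from 0.812 (STR) to 1.22 (OB). The regions with the fewest and the most genes were thus also at the ends of this scale. Whether the same ranking holds over all genes was not tested. Efnb3, a transmembrane ephrin, was high everywhere, at 83.0 and 59.9 FPKM in SVZ 1 and SVZ 2, 69.8 in OB, 83.9 in DG and 53.7 in STR. Epha1 had the lowest maximum, with values between 0 and 0.312 FPKM. The genes that differed between regions are described below by role.

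**Figure D1:**
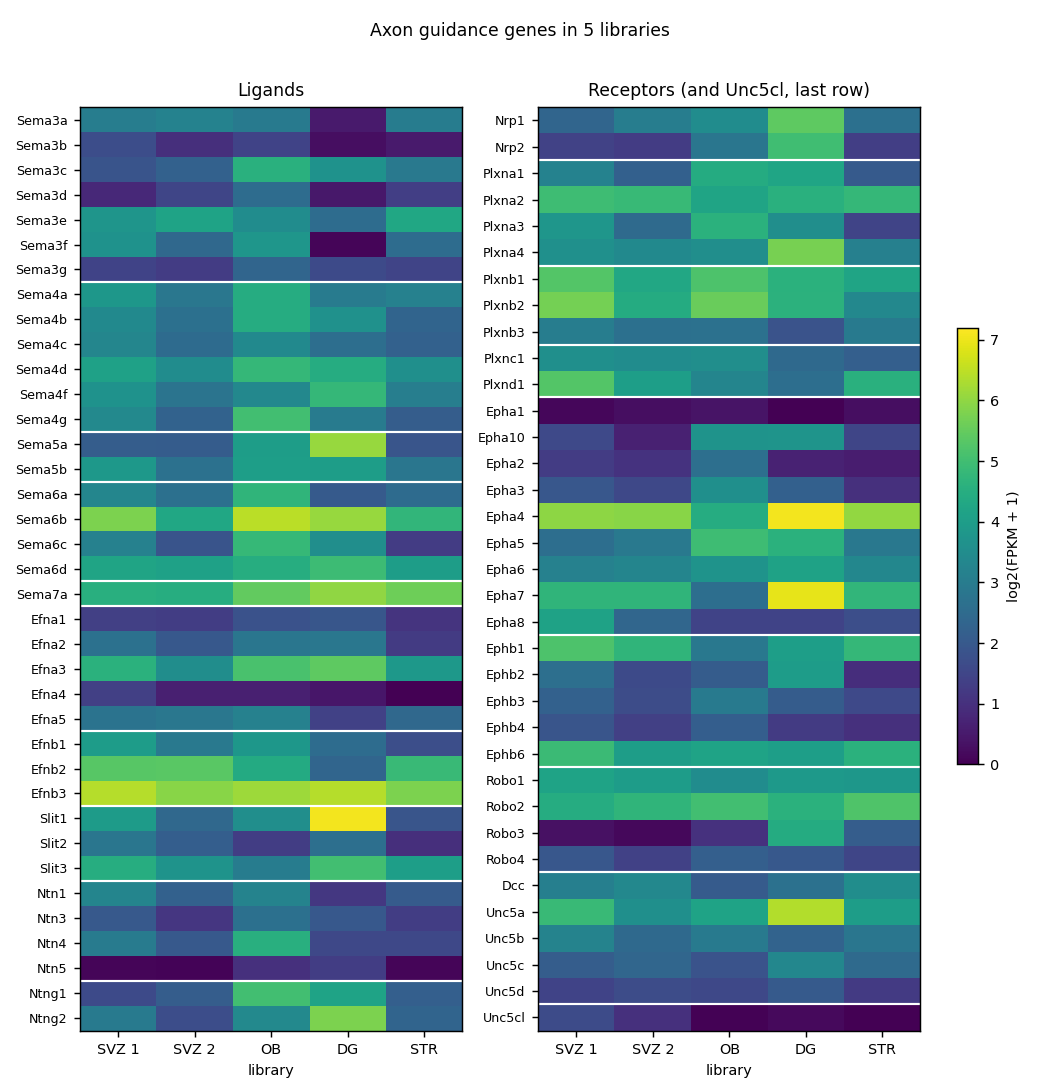
Heat map of log2(FPKM + 1) for the 37 ligands (left) and for the 34 receptors and Unc5cl (right), 1 row per gene and 1 column per library, with white lines between families. Slit1, Epha4 and Epha7 are brightest in the DG column, and Sema3f and Sema3a are dark there.

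Between the SVZ and the OB, the start and the end of neuroblast migration, guidance genes as deposited were more often higher in OB than lower. Epha1 and Ntn5 stayed under 1 FPKM in both regions and were not tested. Of the 70 guidance genes tested, 15 (21.4%) were higher in OB and 4 (5.71%) were lower, where 8.33% of all 15941 genes tested were higher and 5.18% lower. The median difference OB minus SVZ was 0.48 for the guidance genes, 0.20 for all genes tested and 0.24 for coding genes. Since the coding median itself was shifted, the libraries were also scaled by median ratios. After scaling, 13 of 69 guidance genes were higher and 10 lower, where 1056 of all 15731 genes were higher and 1042 lower. The guidance median was then 0.21 against -0.01 for coding genes. As deposited, 9 of 36 ligands were higher and 0 lower, and of 33 receptors 6 were higher and 4 lower. After scaling, 7 ligands were higher and 3 lower, and of 32 receptors 6 were higher and 6 lower. The difference between ligands and receptors was not tested. By limma, 0 of the 70 had an adjusted p under 0.05 and 19 had an unadjusted p under 0.05, of which 15 were higher in OB. Over all genes the same test called 0, with 2261 at an unadjusted p under 0.05. After median ratio scaling limma called 736 of 15731 genes (4.68%), and 5 guidance genes passed: Ntng1 (adjusted p = 0.0235), Epha10 (0.0383) and Sema3c (0.043) higher, and Ephb1 (0.0343) and Epha7 (0.0383) lower.

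**Figure D2:**
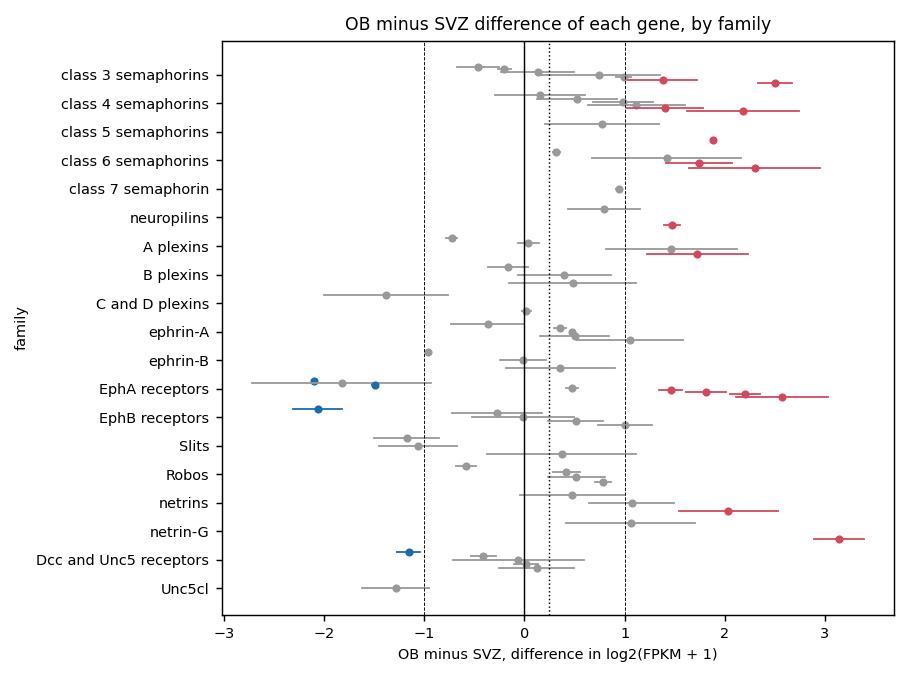
Difference OB minus SVZ in log2(FPKM + 1) for each tested gene, by family; the dot is the mean over the SVZ samples and the line runs from the difference with one SVZ sample to that with the other. Red genes were higher and blue genes lower than both SVZ samples by 1 log2 unit (dashed lines), and the dotted line is the median of coding genes at 0.24.

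Of the 9 ligands higher in OB, 7 were semaphorins. Of 20 semaphorins 7 were called higher and 0 lower as deposited, and 5 and 0 after median ratio scaling. Their median difference was 0.99 as deposited and 0.74 after scaling, against 0.20 and -0.06 for all genes. Sema3c, a secreted class 3 semaphorin, lies on chromosome 5, 17080634 to 17236085 of mm9. It was at 2.69 and 3.69 FPKM in SVZ 1 and SVZ 2, 22.5 in OB, 11.6 in DG and 6.50 in STR. OB lay above all other libraries, with a difference from the SVZ of 2.50 ± 0.46 (SE). Sema3d, of the same class, was at 0.773 and 1.86 FPKM in the SVZ, 4.86 in OB, 0.372 in DG and 1.55 in STR. Its difference of 1.38 ± 0.46 was past 1 log2 unit as deposited and not after median ratio scaling.

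Of the transmembrane semaphorins, 5 were called higher in OB. Sema4g was at 9.48 and 3.84 FPKM in SVZ 1 and SVZ 2, 31.4 in OB, 7.03 in DG and 3.37 in STR (OB minus SVZ 2.18 ± 0.62). Sema4b was at 9.72 and 5.33 FPKM in the SVZ, 20.8 in OB, 11.5 in DG and 3.99 in STR, and its call (1.41 ± 0.53) was lost after median ratio scaling. Sema6a, a ligand of A plexins, was at 8.87 and 5.27 FPKM in the SVZ, 25.3 in OB, 3.14 in DG and 4.67 in STR (1.74 ± 0.51). In each of these genes the OB value was the highest of the 5, and DG lay under both SVZ samples for Sema6a.

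Sema6c was at 7.98 and 2.64 FPKM in SVZ 1 and SVZ 2, 27.1 in OB, 10.7 in DG and 1.43 in STR, a difference of 2.30 ± 0.68. Sema5a, whose class carries thrombospondin repeats, was at 3.39 and 3.31 FPKM in the SVZ, 15.1 in OB, 67.1 in DG and 2.74 in STR (1.89 ± 0.44). Among the 7 called semaphorins it was the one whose DG level exceeded that of OB. Sema6b, the most abundant semaphorin in OB, was at 54.1 and 18.6 FPKM in the SVZ, 87.0 in OB, 66.6 in DG and 25.7 in STR, a difference of 1.42 ± 0.75 in which SVZ 1 and OB were under 1 log2 unit apart. Sema3a and Sema3e had negative differences, -0.20 ± 0.43 and -0.46 ± 0.47, both within their error.

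Of the semaphorin receptors, Plxna1 and Nrp2 were higher in OB. Plxna1 was at 8.19 and 3.58 FPKM in SVZ 1 and SVZ 2, 20.5 in OB, 17.9 in DG and 3.08 in STR (1.73 ± 0.59). Nrp2, the neuropilin that binds Sema3f, was at 1.69 and 1.42 FPKM in the SVZ, 6.09 in OB, 31.0 in DG and 1.53 in STR (1.47 ± 0.42). These were the called members among 9 plexins and 2 neuropilins, and 0 of the 11 were lower. Nrp1, the receptor of Sema3a, was at 4.06 and 7.34 FPKM in the SVZ, 10.3 in OB, 41.3 in DG and 5.27 in STR, with OB minus SVZ of 0.79 ± 0.52. Plxnd1, the receptor of Sema3e, was at 37.5 and 15.4 FPKM in the SVZ and 8.65 in OB. Its difference of -1.38 ± 0.66 was under 1 log2 unit against SVZ 2 and was called lower after median ratio scaling.

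Eph receptors held genes on both sides, 4 higher and 3 lower of 13 tested. Epha5, a receptor for ephrin-A ligands, was at 5.13 and 6.53 FPKM in SVZ 1 and SVZ 2, 30.2 in OB, 23.3 in DG and 6.41 in STR (2.2 ± 0.45). Epha10, which lacks an active kinase, was at 2.01 and 0.593 FPKM in the SVZ, 12 in OB, 12.2 in DG and 1.82 in STR (2.57 ± 0.55). For both genes OB and DG stood together above the SVZ and STR.

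Epha3 and Epha2 were highest in OB. Epha3 was at 2.90 and 1.96 FPKM in SVZ 1 and SVZ 2, 11.0 in OB, 3.65 in DG and 0.993 in STR (1.82 ± 0.44). Epha2 was at 1.42 and 1.06 FPKM in the SVZ, 5.14 in OB, 0.613 in DG and 0.494 in STR (1.46 ± 0.38).

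The 3 Eph receptors lower in OB were Epha4, Epha7 and Ephb1. Epha4, which binds ephrins of both the A and B type, was at 62.1 and 59.5 FPKM in SVZ 1 and SVZ 2, 21.0 in OB, 134 in DG and 64.1 in STR (-1.49 ± 0.47). Epha7 was at 25.0 and 25.4 FPKM in the SVZ, 5.11 in OB, 122 in DG and 25.9 in STR (-2.10 ± 0.45). Ephb1, a receptor of B ephrins, was at 35.5 and 25.0 FPKM in the SVZ, 6.37 in OB, 15.5 in DG and 26.9 in STR (-2.06 ± 0.48). OB was the lowest of the 5 libraries for all 3 genes, and their SVZ values lay at the striatal level, with SVZ minus STR of -0.07 ± 0.50, -0.04 ± 0.47 and 0.14 ± 0.50. Epha8 was at 16.8 and 4.15 FPKM in the SVZ and 1.70 in OB, and its difference (-1.82 ± 0.82) reached 1 log2 unit against both SVZ samples only after median ratio scaling or with the smaller pseudocount.

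Dcc, the attractive netrin receptor, was the fourth gene lower in OB, at 7.70 and 9.22 FPKM in SVZ 1 and SVZ 2, 3.23 in OB, 5.46 in DG and 10.6 in STR (-1.16 ± 0.44). SVZ minus STR was -0.30 ± 0.45. All 10 markers of striatal projection neurons were lower in OB than in both SVZ samples, with a summed level of 313.9 FPKM in OB against 4045 to 5133 in the SVZ. Their part in the lower OB values of Epha4, Epha7, Ephb1 and Dcc was not tested.

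Ephrins did not pass: 0 of 8 were called in either direction between OB and the SVZ, with differences from -0.96 to 1.05. Efnb2, a transmembrane ephrin, was at 39.6 and 40.0 FPKM in SVZ 1 and SVZ 2, 19.98 in OB, 4.05 in DG and 28.5 in STR. OB was under both SVZ samples, with a difference of -0.96 ± 0.44, and was past 1 unit after median ratio scaling (-1.23). Efnb1 gave 0.36 ± 0.61 and Efnb3 -0.01 ± 0.51.

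Of the netrin-G and netrin ligands, Ntng1 and Ntn4 were higher in OB. Ntng1, a membrane-anchored relative of the netrins at synapses, lies on chromosome 3, 109582968 to 109946390. It was at 2.09 and 3.37 FPKM in SVZ 1 and SVZ 2, 31.4 in OB, 17.1 in DG and 3.51 in STR. Its difference of 3.14 ± 0.48 was the largest of all guidance genes (limma adjusted p = 0.0949). The table splits the gene over 6 transcripts, and 5 of them were higher in OB than in both SVZ samples. The 5347-base transcript was at 1.06 and 0.624 FPKM in the SVZ and 8.92 in OB, and the 2190-base transcript was at 0.369 and 1.02 against 8.28.

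Ntn4, a netrin of basement membranes, was at 6.98 and 3.02 FPKM in SVZ 1 and SVZ 2, 22.2 in OB, 1.96 in DG and 1.94 in STR (2.03 ± 0.58), so OB lay above every other library. Ntn1, the classical ligand of Dcc, was at 8.63 and 3.70 FPKM in the SVZ and 8.33 in OB, and the difference of 0.47 ± 0.59 was within its error. The Unc5 receptors, which turn netrin into a repellent, gave differences between -0.41 and 0.13, and none of the 4 was called.

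Slits and Robos gave no call between OB and the SVZ as deposited. Slit2 was at 6.05 and 3.48 FPKM in SVZ 1 and SVZ 2, 1.49 in OB, 5.21 in DG and 0.968 in STR (OB minus SVZ -1.17 ± 0.48). Slit3 was at 21.3 and 11.95 FPKM in the SVZ, 7.15 in OB, 31.4 in DG and 15.4 in STR (-1.06 ± 0.54). OB lay under both SVZ samples for these genes, by less than 1 unit against SVZ 2, and both were called lower after median ratio scaling. Of 5 choroid plexus markers 3 were lower and 1 was higher in OB, and they summed to 31.8 and 31.7 FPKM in the SVZ and 4.79 in OB. Their part in the Slit values was not tested.

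Robo1, a main Slit receptor of migrating neuroblasts, was at 17.0 and 14.8 FPKM in SVZ 1 and SVZ 2, 10.3 in OB, 13.7 in DG and 13.0 in STR. Robo2 was at 20.9 and 25.4 FPKM in the SVZ, 31.1 in OB, 23.1 in DG and 36.1 in STR. The differences OB minus SVZ were -0.58 ± 0.45 and 0.42 ± 0.46, and both receptors stayed within 1 log2 unit across regions. Robo4, the endothelial Robo, was between 1.62 and 3.57 FPKM in all 5 libraries.

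**Figure D3:**
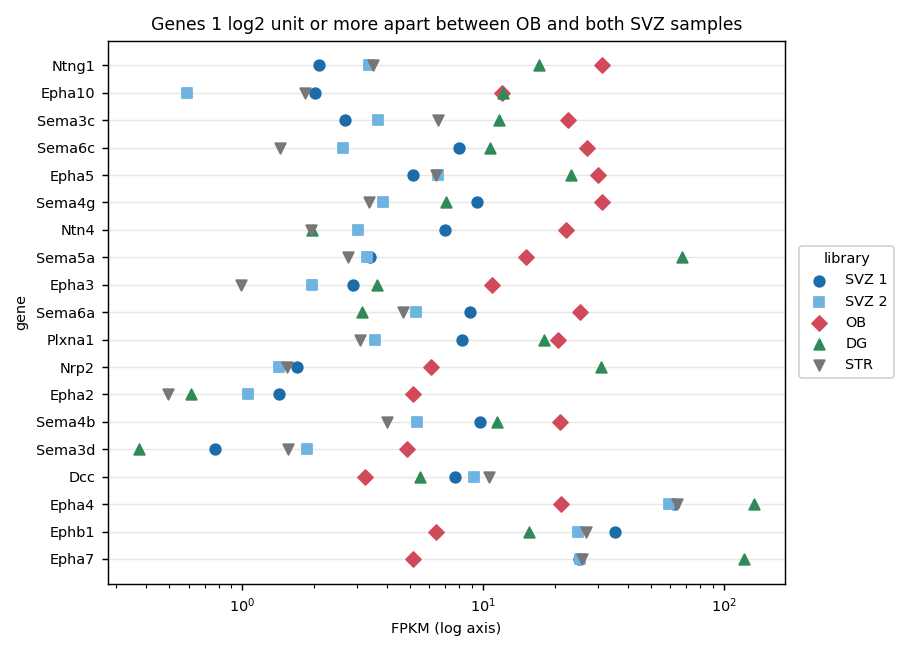
FPKM on a log axis of the 19 guidance genes called between OB and both SVZ samples, 1 point per library, ordered by the difference OB minus SVZ. OB (diamonds) is right of both SVZ samples from Ntng1 to Sema3d and left of them for Dcc, Epha4, Ephb1 and Epha7.

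Markers of several cell types were higher in OB beside these genes. Meningeal fibroblast markers were higher for 7 of 8 and summed to 2261 FPKM in OB against 151.5 and 178.1 in the SVZ. Most of these sums was Ptgds alone, at 2178 FPKM in OB and 141 and 172 in SVZ 1 and SVZ 2. Bulb interneuron markers were higher for 5 of 6 (2433 against 792.6 and 575.1). Mitral and tufted cell markers were higher for 6 of 8 (838 against 67.1 and 65.6), olfactory nerve and ensheathing glia markers for 5 of 6 (942 against 118 and 77.5) and neuroblast markers for 4 of 10, with 2 lower. Endothelial markers were higher for 1 of 8. Defining markers were listed at 0 in some libraries, S100a5 in all but OB, and Tbx21 and Eomes in STR. The part of these cell types in the OB values was not tested.

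Ligands were set beside their receptors in 53 textbook pairs, built from 31 ligands and 29 receptors, so that many pairs share a member and are not independent. In 28 pairs at least 1 partner was called between OB and the SVZ. Of all guidance genes tested, 9 of 36 ligands were higher and 0 lower, and 6 of 33 receptors were higher and 4 lower. Whether the pair counts differ from what these calls give by themselves was not tested. Both partners were higher in OB in 3 pairs. These were Sema3c with Nrp2 (2.50 and 1.47 log2 units), Sema5a with Plxna1 (1.89 and 1.73) and Sema6c with Plxna1 (2.30 and 1.73). The Sema5a and Sema6c pairs share their receptor. The ligand alone was higher in 6 pairs, among them Sema6a with Plxna2, whose receptor gave -0.73 ± 0.45, and Sema4g with Plxnb2.

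The receptor alone was higher in 7 pairs and lower in 11. Efna5, an ephrin at 5.67 and 6.22 FPKM in SVZ 1 and SVZ 2 and 7.88 in OB, was paired with receptors on both sides: Epha5 and Epha3 were higher in OB, and Epha7 and Epha4 lower. Efnb1, Efnb2 and Efnb3 were each paired with Ephb1, which was lower. Ntn1 and Ntn3 were paired with Dcc, also lower, and Ntn3 was at 2.999 and 1.22 FPKM in SVZ 1 and SVZ 2, 5.26 in OB, 2.95 in DG and 1.48 in STR.

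The uncalled partners of called genes had the following levels. Of the ephrins, Efna1, the ligand of Epha2, was between 1.10 and 2.77 FPKM in the 5 libraries, and Efna2, a ligand of Epha4, between 1.37 and 6.30. Efna3, another ligand of Epha4, was at 23.2 and 10.6 FPKM in the SVZ, 33.8 in OB, 41.9 in DG and 13.2 in STR (1.05 ± 0.61). Among ligands of Nrp2, Sema3b was at 2.23 and 0.953 FPKM in the SVZ, 1.75 in OB, 0.196 in DG and 0.434 in STR, and Sema3g at 1.72 and 1.44, 4.12, 2.07 and 1.78 FPKM in the same order. Sema6d, paired with Plxna1, was between 15.2 and 29.7 FPKM. Of the plexins, Plxna2 was between 17.3 and 30.5 FPKM with OB lowest, and Plxnb3 between 2.56 and 7.26 with DG lowest.

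In 1 pair the partners were called in opposite directions. Ntng1 was 3.14 ± 0.48 log2 units higher in OB, while Lrrc4c, its postsynaptic partner NGL-1, was at 40.1 and 52.3 FPKM in SVZ 1 and SVZ 2, 13.7 in OB, 17.6 in DG and 54.3 in STR (-1.67 ± 0.48). The gene that was higher in OB and DG thus had a partner whose values were lower in both. In the remaining 25 pairs neither partner was called, and these include all 6 pairs of Slits with Robo1 and Robo2.

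**Figure D4:**
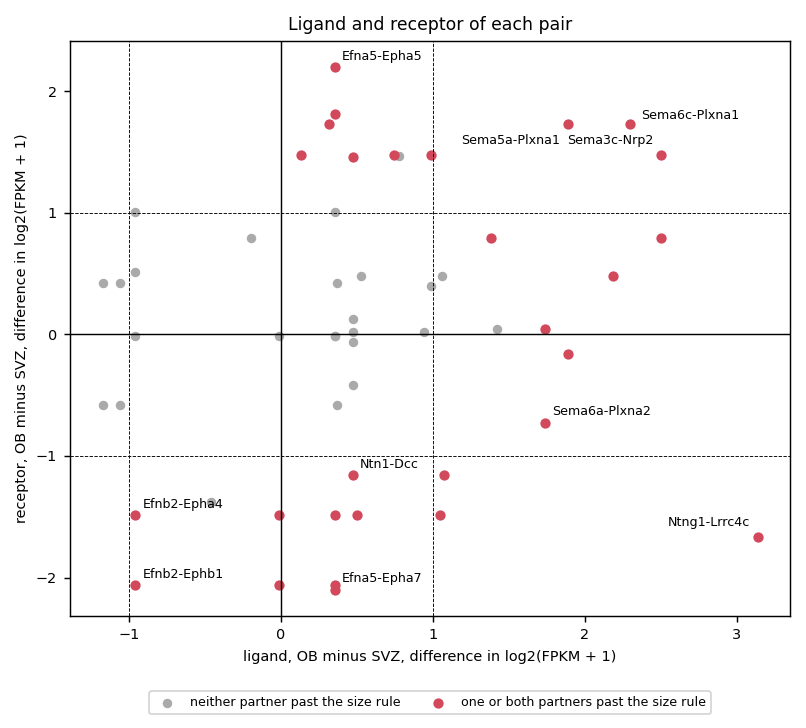
Difference OB minus SVZ in log2(FPKM + 1) of the ligand (x axis) and of the receptor (y axis) for 53 ligand-receptor pairs, red where at least 1 partner was called. Upper right are the 3 pairs with both partners higher in OB, and Ntng1-Lrrc4c is alone at the lower right.

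Other genes of guidance signalling were counted from a list of 60, of which 59 were in the table. Between OB and the SVZ 14 were higher and 8 lower of 59 tested, where 8.33% of all genes were higher and 5.18% lower. Their median difference was 0.60 against 0.20 for all genes. Median ratio scaling gave 10 higher and 9 lower, where 1056 of all 15731 genes were higher and 1042 lower. The netrin co-receptor gene Dscam was at 3.59 and 2.95 FPKM in SVZ 1 and SVZ 2, 25.5 in OB, 19.8 in DG and 3.54 in STR (2.64 ± 0.44). Ablim3, an actin-binding protein, was 3.58 ± 0.47 higher, and the ephexin gene Ngef, an exchange factor coupled to EphA4, was at 357.9 and 207.7 FPKM in the SVZ and 53.6 in OB (-2.33 ± 0.61). Flrt3 and Flrt2, ligands of Unc5 receptors, were lower, at -2.63 ± 0.47 and -1.96 ± 0.44. Chn1, the Rac-inactivating protein that acts after EphA4, was at 309 and 352 FPKM in the SVZ and 68.2 in OB. The remaining higher genes were Dscaml1, Rgmb, Sdc3, Crmp1, Rnd1, Farp1, Vav2, Fyn, Ablim1, Pak1, Limk1 and Tiam1, and the remaining lower ones included Lrrc4c, Chl1 and Srgap1. Against DG 6 of the 59 were higher in the SVZ and 8 lower, where 7.96% and 5.55% of all genes were. Against STR 1 was higher, the neuronal cytoskeleton gene Dpysl3 (35.6 and 14.7 against 4.73 FPKM, 2.06 ± 0.64), and 0 were lower, where 3.56% and 0.79% of all genes were.

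Between the SVZ and the dentate gyrus, Slit1, Robo3, both neuropilins and 5 Eph receptors were higher in DG, while Efnb2 and 3 class 3 semaphorins were lower there. Of 71 tested, 19 were lower in the SVZ than in DG and 8 higher, where 5.55% of all 15742 genes were lower and 7.96% higher. The median SVZ minus DG was -0.32 for guidance genes and 0.05 for all genes. Median ratio scaling gave 18 lower and 8 higher, where 943 of all 15692 genes were lower and 1261 higher. By limma 0 guidance genes and 14 of all genes had an adjusted p under 0.05, and 25 of the 71 guidance genes had an unadjusted p under 0.05, where 2184 of the 15742 genes did. After median ratio scaling 10 guidance genes passed, 7 of them lower in the SVZ, where 604 of 15692 genes (3.85%) did. Guidance genes at least 1 log2 unit above every library of the other regions numbered 12 in DG and 7 in OB, and 0 in the SVZ and STR. The shares of all 16454 genes that met these rules were 2.86% for DG, 5.11% for OB, 1.46% for the SVZ and 0.498% for STR.

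The 7 genes highest in OB by this rule were Epha2, Epha3, Ntn4, Sema3d, Sema4g, Sema6a and Sema6c, as given above. The 12 genes highest in DG were Epha4, Epha7, Ephb2, Nrp1, Nrp2, Ntng2, Plxna4, Robo3, Sema4f, Sema5a, Slit1 and Unc5a.

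Slit1, a Slit of the nervous system, lies on chromosome 19, 41674747 to 41818346. It was at 133 FPKM in DG, 14.3 and 4.45 in the SVZ samples, 10.8 in OB and 2.76 in STR (SVZ minus DG -3.88 ± 0.74). Robo3, the Robo of commissural axons, lies on chromosome 9, 37223630 to 37240760. It was at 20.6 FPKM in DG, 0.257 and 0.122 in the SVZ, 1.05 in OB and 3.33 in STR (-4.19 ± 0.39, limma adjusted p = 0.0623). STR lay above both SVZ samples for Robo3, with SVZ minus STR of -1.87 ± 0.44. Slit3 was also at its highest in DG, by less than 1 unit over SVZ 1.

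Some genes higher in OB were also lower in the SVZ than in DG. SVZ minus DG was -2.59 ± 0.55 for Epha10, -1.84 ± 0.45 for Epha5, -2.30 ± 0.47 for Ntng1 and -1.54 ± 0.59 for Plxna1. The OB and DG comparisons share the SVZ samples. Ntn5, a netrin under 1 FPKM elsewhere, was at 1.47 FPKM in DG against 0.073 and 0.051 in the SVZ (-1.22 ± 0.35), and Sema7a at 63.2 against 22.4 and 21.4 (-1.49 ± 0.46). Plxnd1 and Plxnc1 were higher in the SVZ than in DG, by 2.05 ± 0.66 and 1.09 ± 0.42. The call for Plxnc1 was lost after median ratio scaling, when Epha8 was called in its place (1.80).

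The class 3 semaphorin receptors Nrp1, Nrp2 and Plxna4 were highest in DG, while Plxnd1, the receptor of Sema3e, was at its lowest there with 5.05 FPKM. Nrp2 was at 31.0 FPKM in DG against 1.42 to 6.09 in the other libraries (SVZ minus DG -3.65 ± 0.42), and Nrp1 at 41.3 against 4.06 to 10.3 (-2.70 ± 0.52). Plxna4, their signalling partner, was at 52.1 against 7.78 to 11.3 FPKM (-2.22 ± 0.44). Each of these receptors had its DG value above all 4 other libraries.

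Sema3a was at 0.430 FPKM in DG and 7.36 and 8.18 in the SVZ samples, 6.63 in OB and 7.15 in STR (SVZ minus DG 2.61 ± 0.42). Sema3f was at 0.0786 FPKM in DG against 11.6 and 4.38 in the SVZ, 12.8 in OB and 4.86 in STR (2.94 ± 0.64). Sema3e was 1.40 ± 0.46 higher in the SVZ. Sema3c went the other way, at -1.60 ± 0.45, so the class did not move as one.

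The membrane ligands Sema5a, Ntng2 and Sema4f were highest in DG. Sema5a was at 67.1 FPKM in DG against 2.74 to 15.1 elsewhere (-3.97 ± 0.43). Ntng2, the netrin-G partner of Lrrc4, was at 53.5 FPKM against 2.22 to 9.48 (-3.44 ± 0.67), and Sema4f was at 26.8 against 5.77 to 11.6 (-1.59 ± 0.56). Unc5a was at 82.5 FPKM in DG against 10.9 to 28.6 (-2.15 ± 0.69), while Ntn1 was at 1.26 in DG and 8.63 and 3.70 in the SVZ (1.57 ± 0.58).

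Eph genes also divided. Ephb2, a receptor at excitatory synapses, was at 14.9 FPKM in DG against 0.926 to 5.2 elsewhere (-1.87 ± 0.58), and Epha7 was at 122 against 5.11 to 25.9 (-2.23 ± 0.45). Epha4 was at 134 FPKM in DG (-1.13 ± 0.47) and missed the size rule after median ratio scaling, with an average difference of -1.13 but -0.98 against the nearer SVZ sample. Efnb2 was at 4.05 FPKM in DG against 19.98 to 40.0 in the other 4 libraries (3.01 ± 0.44), and Efna5 was 1.40 ± 0.42 higher in the SVZ. The DG was thus the region with the highest Epha4, Epha7 and Ephb2 and the lowest Efnb2. Not all ephrins were low there. Efnb3 (83.9 FPKM), Efna3 (41.9), Efna2 (6.30) and Efna1 (2.77) had their highest value in DG, though none of them was called against the SVZ.

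Nrp2 and Epha7 have several transcripts. In DG the 4696-base and 6724-base Nrp2 transcripts were at 15.5 and 15.5 FPKM and the other 4 were at 0.00126 or less, and of Epha7 the 3272-base transcript was at 80.2 and the 6732-base one at 41.6 FPKM. In the SVZ samples the same Epha7 transcripts were at 13.9 and 10.9, and at 11.1 and 14.5 FPKM. Transcript shares were not stable for every gene. The 6277-base transcript of Sema6d was at 5.70 FPKM in SVZ 1 and 0.506 in SVZ 2, and the 6316-base one at 0.487 and 4.76, while the gene total was 17.4 and 16.5. In DG the 5259-base Efna5 transcript was at 0 FPKM, against 4.73 and 5.38 in SVZ 1 and SVZ 2. The 5178-base one went the other way, at 1.64 in DG against 0.948 and 0.836. For Sema3a the 6422-base transcript was at 0 in DG against 5.75 and 4.85 in the SVZ samples. Its 6850-base transcript was at 0.430 against 1.61 and 3.33. The DG library had the most transcripts listed at 0. All gene values here are sums over transcripts.

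**Figure D5:**
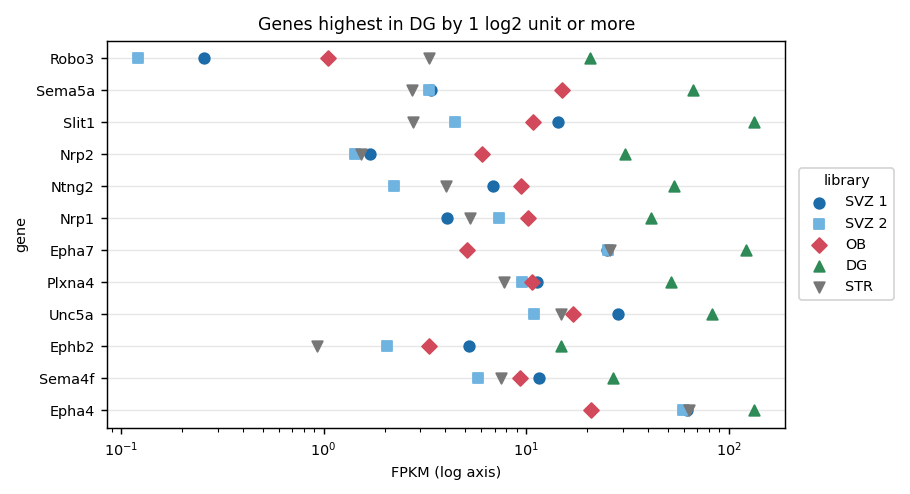
FPKM on a log axis of the 12 guidance genes that were at least 1 log2 unit higher in DG than in every other library, 1 point per library, ordered by the difference from the SVZ. DG (triangles pointing up) is farthest right in every row, from 14.9 FPKM for Ephb2 to 134 for Epha4.

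Markers of dentate granule neurons summed to 473.9 FPKM in DG against 5.04 to 139.2 in the other libraries, with 5 of 6 highest there. Markers of cortical and hippocampal CA excitatory neurons summed to 3377 FPKM against 326.6 to 859, with 4 of 6 highest in DG. Whether the guidance genes were high in granule neurons or in other excitatory neurons of the dissected tissue was not tested. Higher in the SVZ than in DG were 10 of 10 striatal projection neuron markers and 7 of 10 neuroblast markers. So were 6 of 8 oligodendrocyte markers and 6 of 6 ependymal markers, and 0 of these lists were lower. Their part in the 8 guidance genes higher in the SVZ than in DG was not tested.

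Between the SVZ and the striatum, its neighbour, 6 guidance genes passed the size rule. Of 70 tested, 4 were higher in the SVZ and 2 lower, where 3.56% of all 15442 genes were higher and 0.79% lower. The median difference was 0.27 for the guidance genes and 0.21 for all genes, and after median ratio scaling it was 0.0011 and -0.05. By limma 0 passed an adjusted p of 0.05, as over all genes, and 7 had an unadjusted p under 0.05 where 683 of all genes did. The count rested on SVZ 2, the sample that lies with STR. With SVZ 1 alone 23 of 70 guidance genes were higher and 3 lower. With SVZ 2 alone the calls were the same 4 and 2 genes of 67, none of which the size rule allows to be lost there. Of all 14798 genes tested with SVZ 2 alone, 4.45% were higher and 1.35% lower. Over all genes, 3508 passed the size rule in either direction with SVZ 1 alone and 859 with SVZ 2 alone. The rise with SVZ 1 was thus not particular to guidance genes.

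The ligand Slit2 was the Slit higher in the SVZ, at 6.05 and 3.48 against 0.968 FPKM (1.51 ± 0.50). Efnb1, an X-linked ephrin, was at 14.8 and 6.46 FPKM in SVZ 1 and SVZ 2 and 2.35 in STR (1.70 ± 0.59). The receptor Plxnb2, which has a part in the proliferation of neural progenitors, was at 50.9 and 20.5 against 9.18 FPKM (1.72 ± 0.66), and Plxnc1, the receptor of Sema7a, at 11.1 and 10.4 against 3.54 (1.37 ± 0.44). Its ligand Sema7a was lower in the SVZ, at 22.4 and 21.4 against 47.7 FPKM (-1.09 ± 0.48), and Robo3 was the other lower gene. The A plexin gene Plxna3 (12.7 and 4.57 against 1.79 FPKM, 1.65 ± 0.65) stayed just under the size rule, at 0.999 log2 units against SVZ 2. The call for Plxnb2 was lost after median ratio scaling, when Unc5cl (2.15 and 0.986 FPKM in the SVZ, 0 in STR) was called in its place.

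All 6 ependymal markers were higher in the SVZ than in STR, with sums of 279 and 117.7 against 3.19 FPKM. So were 7 of 10 neuroblast markers (571.9 and 377.5 against 177), sums in which Tubb3 alone was at 290.9 and 185.7 against 146.6. Of 5 choroid plexus markers 2 were higher in the SVZ and 0 lower, with sums of 31.8 and 31.7 against 12.5 FPKM. None of the 10 striatal neuron markers, 8 oligodendrocyte markers or 8 endothelial markers was called. The part of these cells in the 4 higher guidance genes was not tested.

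Exons of 11 guidance genes overlap exons of a gene on the opposite strand in the reference annotation. Among them are Ephb1, Plxna1, Plxna4, Plxnb1, Unc5a and Efna3, with longest overlaps from 34 bases in Unc5a to 257 in Plxnb1. The longest of all, 407 bases, is in Ntn5, a gene at 1.47 FPKM or less in every library. The sources used here do not say whether the libraries keep strand. Ntng2 shares up to 461 exon bases with a gene on its own strand. Reads of such stretches cannot be told apart, so the values of these genes are uncertain by that share.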

How the data were processed

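Poly(A) RNA-seq libraries of microdissected SVZ (n = 2), OB, DG and STR (n = 1 each) were used. The deposited table holds FPKM values that the authors computed per transcript, per the file headers. The submitters' processing notes name CASAVA, TopHat 1.2.0, Cufflinks 1.0.0 and mm9, with no role or order. Coordinates of genes are those of the table on mm9, counted from 1, and promoters are from RefSeq on GRCm38.p6. FPKM carries no depth: of low values, 25.9% to 35.8% lay within 0.1 of a whole multiple of the best step, where chance gives 20% for a fixed step.

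FPKM was summed per symbol for RefSeq transcripts and per locus for the authors' lncRNAs, which gave 27802 genes. With R 4.3.3, limma 3.58.1 (moderated by empirical Bayes, trend on) took log2(FPKM + 1) of all 5 libraries with 4 region groups, 1 residual degree of freedom, and its p-values received Benjamini-Hochberg adjustment over all genes that reached 1 FPKM in either region. The fit was tested on simulated data. Values are given for genes past the size rule of 1 log2 unit between OB and both SVZ samples, for genes highest in a region and for their pair partners. Others (Plxnd1, Plxnc1, Plxna3, Epha8, Slit2, Slit3, Sema3e, Sema7a, Ntn5, Robo4 and Unc5cl) were picked with their values known. The members, lists and pairs were chosen with earlier results of these data known. Alternatives were a pseudocount of 0.1, no filter, a filter of 5 FPKM, median ratio scaling over coding genes, the highest transcript in place of the sum, each SVZ sample alone, limma without a trend, and size rules on the SVZ mean or of 2 log2 units. The lncRNA exon file was not used here. P-values set each difference against an error drawn from the spread between the 2 SVZ samples, moderated over genes.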

Additional observations from a re-analysis of the deposited data

How the results depend on the processing

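Leaving out an SVZ sample, using the SVZ mean, dropping the filter or lowering the pseudocount can only add calls under the size rule. These settings therefore say nothing about stability. Of the 19 guidance genes called between OB and the SVZ, all 19 were called with a pseudocount of 0.1, as they had to be. All 19 were also called with the highest transcript, but only Epha7, Ephb1, Nrp2 and Ntng1 among them have several transcripts. For the others this setting could change nothing. Sema3d lost its call with the filter of 5 FPKM, and Sema3d and Sema4b with median ratio scaling. The 15 higher became 28 without SVZ 1 and 16 without SVZ 2, and 4 with the rule of 2 units. The 4 lower became 7 with a pseudocount of 0.1, 10 with median ratio scaling, 9 on the SVZ mean, 1 with the rule of 2 units, and 4 to 9 without one SVZ sample. Pairs with a called partner, 28, became 5 with the rule of 2 units and 34 to 37 without one SVZ sample.

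Against STR the 4 higher became 9 with a pseudocount of 0.1, 11 on the SVZ mean, 0 with the rule of 2 units, and 4 without SVZ 1 to 23 without SVZ 2; the 2 lower became 1 with the 5 FPKM filter, 0 with the rule of 2 units, and 2 to 3 without one SVZ sample. Against DG the 8 higher became 3 and the 19 lower 10 with the rule of 2 units, and without one SVZ sample they ran from 9 to 17 and from 21 to 25. Genes highest in OB, 7, became 0 and those highest in DG, 12, became 7 with the rule of 2 units; without SVZ 2 the SVZ had 2 in place of 0.

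Over all genes, those past the size rule between OB and the SVZ (2153) became 3607 on the SVZ mean, 595 with the rule of 2 units and 2735 to 5647 without one SVZ sample. For STR 672 became 1295 (pseudocount 0.1), 432 (5 FPKM filter), 1410 (SVZ mean), 150 (2 units) and 859 to 3508 (one SVZ sample). For DG 2126 became 3243 (pseudocount 0.1), 3299 (SVZ mean), 585 (2 units) and 3134 to 4466 (one SVZ sample). limma calls between OB and the SVZ went from 0 to 200 with the 5 FPKM filter and 736 with median ratio scaling, against STR from 0 to 5 with the filter, and against DG from 14 to 141 and 604, and to 0 with the smaller pseudocount, no filter, the highest transcript or no trend. With the 5 FPKM filter 1 guidance gene passed for OB (Ntng1, adjusted p = 0.0402) and 4 for DG (Sema5a, Nrp2, Robo3 and Efnb2). The cause was not tested. Without one SVZ sample no residual degree of freedom is left, so limma was not run. No paired analysis was possible because the groups share fewer than 2 replicate numbers.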

Other observations

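The authors' lncRNA catalogue holds 15 transcripts that carry the symbol of a guidance gene, 13 symbols in all, and they are not part of the sums above. Of the 15, 1 reached 1 FPKM in a library. That one, a transcript of 1844 bases with the symbol Efna3, was at 0.862 and 1.07 FPKM in SVZ 1 and SVZ 2, 0.752 in OB, 0.535 in DG and 0.784 in STR, while the coding gene Efna3 was at 23.2 and 10.6, 33.8, 41.9 and 13.2 FPKM. A 2010-base transcript with the symbol Plxnb1 was at 0.537 and 0.159 FPKM in SVZ 1 and SVZ 2 and 0.810 in OB.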
